A study of Mus musculus with 18 samples.

Results

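The neutrophil and chemokine genes, 10 of the 47729 genes in the count table, were followed across the colon of WT and Cldn2KO mice. They code for the calprotectin subunits (S100a8, S100a9), a resistin-like protein of neutrophils (Retnlg), the receptors Cxcr2, Csf3r and Trem1, the cytokine Il1b, and the chemokines Cxcl2, Cxcl3 and Cxcl5. The genes were listed by function but selected on their measured values in these libraries, so their levels, fold changes and counts of calls are given as a description, set beside the share of all genes called, with no p-value for a member and nothing drawn from the calls. Bulk RNA-seq was run on 18 colon libraries, 3 in each of 6 groups, to ask how loss of Claudin-2, a tight junction channel protein, bears on colitis, recovery and colitis-associated cancer. WT control and Cldn2KO control mice were untreated. WT recovery and Cldn2KO recovery mice were taken while recovering from colitis that had been set off with DSS (dextran sulfate sodium), an irritant given in drinking water. WT AOM/DSS and Cldn2KO AOM/DSS mice had received azoxymethane (AOM), a carcinogen, once at 10 mg/kg, and 3 cycles of 2.5% DSS. All mice were on a C57BL/6 background, with WT littermates matched for age and sex per the study's methods. The labels give no age and do not tie each library to a mouse, so SDs and p-values measure the spread between libraries. Libraries of a group differed by 11.9 to 320 chi-square per degree of freedom, against 1.08 to 1.18 between the lanes of 1 library.

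Neutrophils are short-lived phagocytes that leave the blood for damaged mucosa. CXCL2, CXCL3 and CXCL5 bind the receptor CXCR2 and draw neutrophils in, IL-1β from myeloid cells raises chemokine output of epithelium and stroma, and G-CSF acts through CSF3R to sustain neutrophils. Inside the neutrophil, S100A8 and S100A9 pair as calprotectin, a metal-binding protein measured in stool as a clinical sign of gut inflammation. In bulk tissue, fewer cells of a type and less RNA per cell cannot be told apart.

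The 3 chemokine members lie together on chromosome 5 (GRCm38, plus strand), with Cxcl5 at chr5:90759360-90761624, Cxcl3 at chr5:90786103-90789600 and Cxcl2 at chr5:90903871-90905938. S100a8 (chr3:90668978-90670035, plus strand) and S100a9 (chr3:90692632-90695721, minus strand) are neighbours as well. The promoters of Cxcl2 and Cxcl3 are shown because their windows share the letters of an NF-κB motif. Each window is the 250 bases before the start annotated by RefSeq (GRCm38.p6), 5′ to 3′ on the plus strand, with the matching stretch in capitals. The Cxcl2 window is chr5:90903649-90903898 and the Cxcl3 window is chr5:90785851-90786100.
Cxcl2: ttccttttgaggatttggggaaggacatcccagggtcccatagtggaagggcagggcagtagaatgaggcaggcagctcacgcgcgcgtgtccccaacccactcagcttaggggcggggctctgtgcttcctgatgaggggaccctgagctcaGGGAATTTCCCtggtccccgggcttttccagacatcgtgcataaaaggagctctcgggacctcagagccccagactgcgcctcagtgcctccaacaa
Cxcl3: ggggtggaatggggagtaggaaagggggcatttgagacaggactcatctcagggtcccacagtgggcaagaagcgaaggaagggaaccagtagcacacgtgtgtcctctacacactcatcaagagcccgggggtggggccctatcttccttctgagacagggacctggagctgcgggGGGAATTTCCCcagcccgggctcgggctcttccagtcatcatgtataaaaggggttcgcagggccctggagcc
The capitals run from base 97 to base 87 before the start in Cxcl2 and from base 73 to base 63 in Cxcl3. The window of Cxcl1, a related chemokine that is no member, holds the same stretch from base 71 to base 61. The NF-κB consensus was searched on both strands, and each stretch holds 2 overlapping matches, 1 per strand. The letters GGGAATTTCC, on either strand, stand in 28 of 32851 RefSeq windows of this length, or 0.0852%, and any match to the consensus in 3.9%. Windows were at hand for 9 of the 10 members, all except Cxcl5, and the other 7 held no match. A match of letters is a description, not a site of binding.

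Depth ran from 17.6 to 27.4 mega-reads (M) counted per library (median 19.6 M). Cldn2 itself had 1 to 12 reads in each Cldn2KO library and 680 to 12389 in each WT library. Levels are read counts per M counted reads (CPM), scaled by edgeR's TMM factors, and means are given ± SD over 3 libraries. Hoxb13, a gene of the distal colon and rectum, was at or below 0.502 CPM in all 6 recovery libraries and in WT control replicate 2, and at 198 to 570 CPM in the other 11, although the study describes the recovery tissue as distal colon. Xist, transcribed in females, was at or below 1.16 CPM in 12 libraries and at 864 to 1740 CPM in the 6 numbered 2 or 3 of WT recovery, Cldn2KO recovery and Cldn2KO AOM/DSS, so libraries within these 3 groups came from mice of both sexes. It was low in all controls and all WT AOM/DSS libraries, so sex was not balanced between the genotypes in AOM/DSS. Nor was sex balanced between recovery and control in either genotype, or between AOM/DSS and control in Cldn2KO.

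For each member the highest of the 18 libraries was WT AOM/DSS replicate 3. This held for 10 of 10 members, and the same library was highest for 14.2% of the 16937 genes tested. It carried from 43.8% of all reads of Csf3r to 79.4% of all reads of S100a8, and it exceeded the next library 3.84-fold in Csf3r and 16.7-fold in S100a8. The summed level of the 10 genes was 1052.5 CPM in this library, against 25.7 and 65.8 CPM in the other WT AOM/DSS libraries and 26.8 to 85 CPM in Cldn2KO AOM/DSS. The sums were 3.55 to 19.3 CPM in the 6 controls and 4.44 to 24.7 CPM in the 6 recovery libraries. The main results that rest on the WT AOM/DSS group are therefore given with and without that library.

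**Figure D1:**
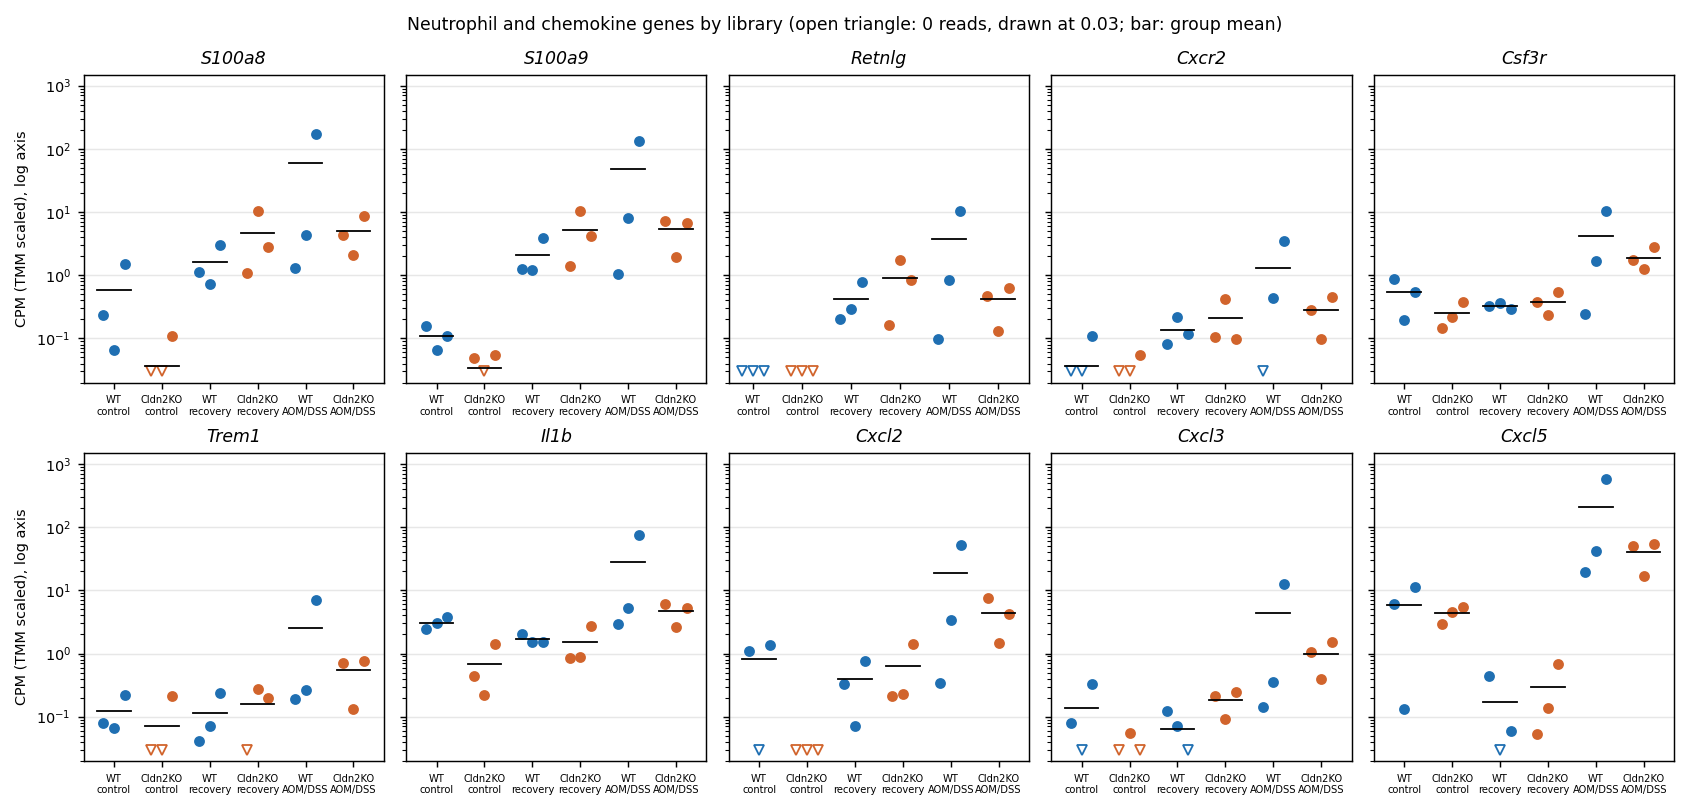
Each panel plots 1 gene, with the 6 groups along the x axis, CPM on a log y axis, 1 point per library (blue WT, orange Cldn2KO) and the group mean as a bar; libraries with 0 reads are open triangles drawn at 0.03. WT AOM/DSS replicate 3 is the top point in all 10 panels, from 3.45 CPM in Cxcr2 to 573 CPM in Cxcl5.

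S100a8 was near 0 in control colon, with CPM of 0.236, 0.0654 and 1.48 in WT and 0, 0 and 0.108 in Cldn2KO, the latter resting on 2 reads in all. In recovery it stood at 1.14, 0.717 and 2.96 CPM in WT and 1.07, 10.4 and 2.75 CPM in Cldn2KO. In AOM/DSS colon the values were 1.31, 4.37 and 174 CPM in WT and 4.32, 2.08 and 8.76 CPM in Cldn2KO. All 3 Cldn2KO recovery and all 3 Cldn2KO AOM/DSS libraries lay above all Cldn2KO controls, while in WT the control at 1.48 CPM overlapped both treated groups.

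Its partner S100a9 had 7 reads in the 3 WT controls together (0.157, 0.0654 and 0.110 CPM) and 2 reads in the Cldn2KO controls (0.0493, 0 and 0.0538 CPM). Recovery libraries held 1.26, 1.22 and 3.90 CPM in WT and 1.39, 10.3 and 4.18 CPM in Cldn2KO. AOM/DSS libraries held 1.06, 8 and 135 CPM in WT and 7.32, 1.95 and 6.62 CPM in Cldn2KO. S100a9 thus separated each treated library from each control of its genotype.

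Because the subunits pair in the protein, their transcripts were compared per length. In the 12 treated libraries the S100a8 to S100a9 ratio of reads per kilobase ran from 0.411 (exact 95% interval 0.319 to 0.527) in WT AOM/DSS replicate 2 to 0.996 (0.821 to 1.21) in Cldn2KO AOM/DSS replicate 3. WT control replicate 3 stood apart, with 27 S100a8 reads against 2 S100a9 reads and a ratio of 10.2 (2.55 to 88.1). These and the later intervals cover counting error only. The other 5 controls held at most 6 S100a8 reads and 4 S100a9 reads each, and no ratio is given for them.

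**Figure D2:**
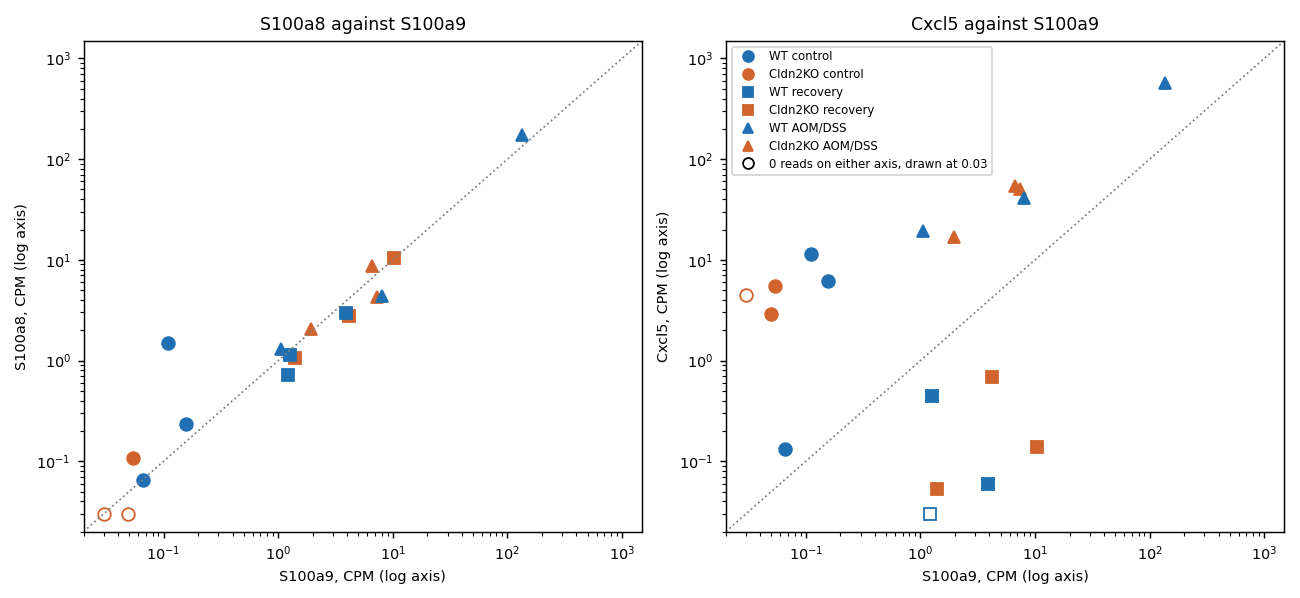
Each point is 1 library; the left panel plots S100a8 and the right panel Cxcl5, in CPM on a log y axis, against S100a9 in CPM on a log x axis, with the dotted line at equal CPM and open symbols, drawn at 0.03, where a gene had 0 reads. S100a8 lies far above S100a9 in WT control replicate 3 (1.48 against 0.110 CPM), and Cxcl5 lies below S100a9 in the 6 recovery libraries and above it in the 6 AOM/DSS libraries and the 6 controls.

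Retnlg had no read in any of the 6 controls. It was found in every treated library, at 0.203, 0.287 and 0.768 CPM in WT recovery and 0.161, 1.72 and 0.836 CPM in Cldn2KO recovery. AOM/DSS libraries held 0.0967, 0.831 and 10.3 CPM in WT and 0.475, 0.130 and 0.634 CPM in Cldn2KO. Against the 3 reads that a group at 0 still allows, taken over the group, recovery was at least 7.8-fold higher in WT and at least 17.9-fold higher in Cldn2KO. AOM/DSS was at least 7.56-fold higher in Cldn2KO and at least 72.9-fold higher in WT, or at least 9.48-fold higher without WT AOM/DSS replicate 3.

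Cxcr2, the receptor for the member chemokines, had 128 reads in all 18 libraries, 73 of them in WT AOM/DSS replicate 3 (3.45 CPM), and did not pass the filter on low counts. No other library exceeded 0.458 CPM. Csf3r, the G-CSF receptor, was measured at 0.536 ± 0.334 CPM in WT control, 0.249 ± 0.117 in Cldn2KO control, 0.326 ± 0.0315 in WT recovery and 0.382 ± 0.155 in Cldn2KO recovery. In AOM/DSS colon Csf3r stood at 0.242, 1.66 and 10.5 CPM in WT and at 1.71, 1.26 and 2.75 CPM in Cldn2KO, the latter all above the Cldn2KO controls. Trem1, an amplifier of myeloid signalling, had 7.08 CPM in WT AOM/DSS replicate 3 and at most 0.774 CPM in any other library.

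Il1b, like Csf3r, had reads in every control library. WT controls had 2.40, 3.07 and 3.73 CPM, and Cldn2KO controls 0.443, 0.222 and 1.40 CPM, with no overlap between the genotypes. Recovery libraries held 2.03, 1.51 and 1.54 CPM in WT and 0.856, 0.881 and 2.75 CPM in Cldn2KO. AOM/DSS colon held 2.95, 5.34 and 74.6 CPM in WT and 6.18, 2.63 and 5.31 CPM in Cldn2KO, and the genotypes overlapped in both. An antisense gene overlaps Il1b and a pseudogene on the other strand overlaps Trem1, and since strand handling is not stated, reads of these pairs cannot be told apart.

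Cxcl5 had the highest mean of the chemokine members in control and AOM/DSS colon, and it was the 1 member whose mean was lower in recovery than in control in both genotypes. Control values were 6.13, 0.131 and 11.4 CPM in WT and 2.91, 4.49 and 5.54 CPM in Cldn2KO. Recovery values were 0.447, 0 and 0.0591 CPM in WT and 0.0535, 0.139 and 0.688 CPM in Cldn2KO. AOM/DSS values were 19.4, 41.2 and 573 CPM in WT and 50.8, 16.7 and 54.0 CPM in Cldn2KO, all above the controls. The low WT control, replicate 2, is the control without Hoxb13, so the 7 libraries lacking Hoxb13 had at most 0.688 CPM of Cxcl5 and the 11 others had at least 2.91 CPM.

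Cxcl2 had no read in any Cldn2KO control, against 1.10, 0 and 1.37 CPM in WT controls. It stood at 0.325, 0.0717 and 0.768 CPM in WT recovery and 0.214, 0.232 and 1.43 CPM in Cldn2KO recovery. AOM/DSS libraries held 0.339, 3.37 and 51.9 CPM in WT and 7.51, 1.46 and 4.19 CPM in Cldn2KO. Cxcl3 was scarcer, with 12.8 CPM in WT AOM/DSS replicate 3, 1.05, 0.389 and 1.51 CPM in Cldn2KO AOM/DSS and at most 0.350 CPM elsewhere. Of the 50-base stretches of Cxcl2 transcripts, 5.84% also occur in Cxcl3 transcripts, so a small part of their reads could have been split or dropped. Other genes share 10.7% of the stretches of Csf3r and 6.68% of those of Cxcr2, and none of those of S100a8, S100a9, Retnlg, Trem1 or Il1b.

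Per kilobase of transcript, the order of mean levels in Cldn2KO AOM/DSS colon was Cxcl5 (21.7 ± 11.1 CPM per kb), S100a9 (10.1 ± 5.59), S100a8 (7.28 ± 4.9), Il1b (2.47 ± 0.971), Cxcl2 (2.12 ± 1.46), Retnlg (0.679 ± 0.424), Csf3r (0.528 ± 0.21), Cxcl3 (0.281 ± 0.161), Trem1 (0.18 ± 0.119) and Cxcr2 (0.0918 ± 0.0591). Neighbours in this order differed by less than the larger of their SDs, except Cxcl5 above S100a9 and Csf3r above Cxcl3.

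The comparison of AOM/DSS with control asked how colitis-associated cancer differed from untreated colon in each genotype. In Cldn2KO colon 9 of the 10 members, all except Trem1, were higher in all 3 AOM/DSS libraries than in all 3 controls, where 15% of genes tested separated in that direction. On pooled reads, with exact 95% counting intervals, S100a8 was 143-fold (39.4 to 1186.6) and S100a9 143-fold (39.2 to 1180.7) higher, each against 2 control reads. Cxcl5 was 9.10-fold (7.98 to 10.4), Csf3r 7.75-fold (4.48 to 14.5) and Il1b 6.58-fold (4.72 to 9.41) higher. Without Cldn2KO control replicate 3 the log2 fold change of Il1b went from 2.76 to 3.82, and S100a8 had no control read. Cxcl2 was at least 76.1-fold higher, and Cxcl3 was 54.6-fold (9.51 to 2183.9) higher against 1 control read. edgeR's quasi-likelihood test, which shares its estimate of spread over the 18 libraries, called none of the 9 members tested at an adjusted p under 0.05, where it called 0.195% of genes. At an unadjusted p under 0.05 there were 8, against 15.2% of genes, and DESeq2 called 6, against 3.55% of genes. Fitting the 6 Cldn2KO libraries alone called all 6 members tested (S100a8, S100a9, Csf3r, Il1b, Cxcl2 and Cxcl5) higher, against 5.87% of genes. Of these, S100a8, S100a9, Csf3r and Cxcl2 passed that fit's filter only through the AOM/DSS libraries where they are high, so the 6 of 6 was largely set by the filter. Without WT AOM/DSS replicate 3, which is in neither group but enters the shared spread, edgeR called 5 members higher (S100a8, S100a9, Csf3r, Il1b and Cxcl3), against 0.462% of genes called higher. Of these, Cxcl3 passed the filter only through Cldn2KO AOM/DSS libraries.

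In WT colon fewer members separated the groups, and the number called turned on the fit. S100a9, Retnlg and Cxcl5 were higher in all 3 AOM/DSS libraries than in all 3 controls (14.9% of genes tested), and edgeR called 7 of 9 members higher, against 3.81% of genes called higher and 10.4% called in either direction. These were S100a8, S100a9, Retnlg, Csf3r, Il1b, Cxcl3 and Cxcl5. Of these, Cxcl3 passed the filter only through AOM/DSS libraries, and S100a9 and Retnlg only through treated libraries. The log2 fold change was 8.61 ± 1.68 (SE) for S100a9, 6.65 ± 1.68 for S100a8, 5.15 ± 1.27 for Cxcl5 and 3.17 ± 0.959 for Il1b. Without WT AOM/DSS replicate 3 they became 5.21, 2.25, 2.35 and 0.44, and 1 member, S100a9, was called, against 0.248% of genes called higher. Other libraries mattered as well. The members called were 1, 0 and 4 without WT control replicate 1, 2 or 3, against 6.24%, 1.99% and 9.75% of genes. They were 10 and 9 of 10 tested without WT AOM/DSS replicate 1 or 2, against 8.48% and 9.33% of genes. With all 18 libraries, Cxcr2, Trem1 and Cxcl3 reached the filter's level in AOM/DSS libraries only, so these counts were partly set by the filter. S100a9 alone was called without the filter (3.09% of genes) and with Hoxb13 as a term (1.89%), and 4 members were called with Xist as a term (7.49%). DESeq2 called 8 members higher, against 17.9% of genes. Fitting the 6 WT libraries alone called none of 6 members tested, against 0.0447% of genes.

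**Figure D3:**
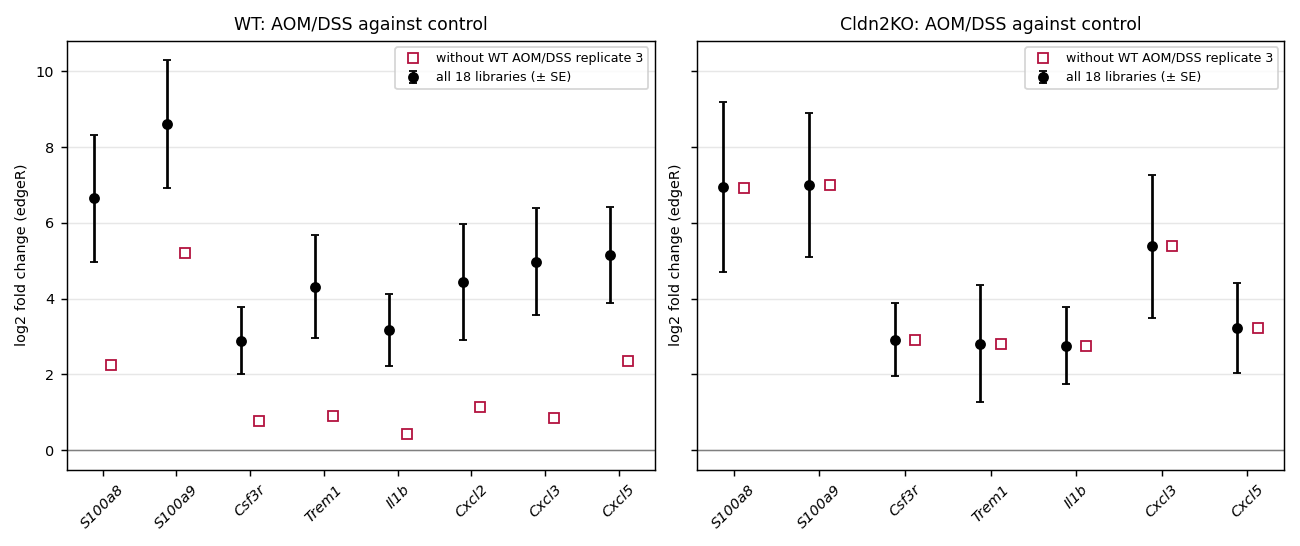
The log2 fold change (y axis, edgeR) of AOM/DSS over control is plotted for each member (x axis) in WT (left) and Cldn2KO (right), with SE bars for the fit of 18 libraries and open squares for the fit without WT AOM/DSS replicate 3; members with 0 control reads and Cxcr2 are left out. In WT each square is below its filled point, S100a8 going from 6.65 to 2.25, while in Cldn2KO, whose libraries are the same in both fits, squares and points lie at the same height.

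Genotype was then compared within AOM/DSS colon. All 9 members tested had log2 fold changes below 0 in Cldn2KO versus WT, from -1.12 for Csf3r to -3.57 for S100a8, but no member separated the genotypes (11.3% of genes did in either direction). No member was called by edgeR or DESeq2, 5 had an unadjusted p under 0.05 in edgeR (5.60% of genes did), and edgeR called 0.00590% of genes. Without WT AOM/DSS replicate 3 the sign turned in 8 of 9 members, with log2 fold changes of 0.83 for S100a8, 0.42 for Cxcl5 and 1.94 for Cxcl3, and stayed at -0.20 for Retnlg. Cxcl3 was then higher in all 3 Cldn2KO libraries than in both WT libraries, by a pooled 3.80-fold (2.01 to 7.92), where 10.3% of genes separated upwards. The direction of the genotype difference in AOM/DSS colon rested on 1 library.

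Recovery from DSS was compared with control to follow mucosal healing. In Cldn2KO colon S100a8, S100a9, Retnlg, Cxcr2, Cxcl2 and Cxcl3 were higher in all 3 recovery libraries than in all 3 controls, and Cxcl5 lower, where 19.9% and 20.5% of genes tested separated upwards and downwards. edgeR called S100a8 and S100a9 higher, 2 of 9 members, against 9.43% of genes called higher and 19.4% in either direction. On pooled reads they were 141-fold (38.8 to 1172.9) and 156-fold (43.0 to 1297.1) above control, and Cxcl5 stood at 0.0696 of control (0.0406 to 0.112). With 1 library left out the Cxcl5 log2 fold change ranged from -5.36 to -3.38. Neither S100a8 nor S100a9 was called when any 1 Cldn2KO control or Cldn2KO recovery replicate 2 was left out, and S100a9 alone was called without Cldn2KO recovery replicate 3. The log2 fold changes moved but stayed above 0, S100a9 at 6.09 to 7.47 against 7.02, and S100a8 at 5.55 without Cldn2KO recovery replicate 2 against 6.86. Without Cldn2KO control replicate 3 S100a8 had no control read. Without WT AOM/DSS replicate 3 in the shared fit, S100a8, S100a9 and Retnlg were called higher and Cxcl5 lower, against 20.7% of genes called. DESeq2 called these 4 and Cxcl2 (23.9% of genes). With the 6 Cldn2KO libraries alone, S100a8, S100a9 and Cxcl5 were called of 4 tested (24.4% of genes), but S100a8 and S100a9 passed that filter only through recovery libraries and Cxcl5 through the 3 controls and 1 recovery library. No member was called without the filter or with Xist as a term.

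In WT colon S100a9 and Retnlg were higher in all 3 recovery libraries than in all controls and Il1b was lower, where 16.8% and 20.9% of genes separated upwards and downwards. On pooled reads S100a9 was 17.3-fold (8.14 to 44.1) and S100a8 2.75-fold (1.83 to 4.22) above control. The S100a8 log2 fold change of 1.44 became 3.22 without WT control replicate 3, which held 27 of 34 control reads, and 0.70 without WT recovery replicate 3. Cxcl5, at 0.0349 of control (0.0179 to 0.0617), was the 1 member called, with a log2 fold change of -4.80 ± 1.62 (SE), against 12.2% of genes called lower and 22.2% in either direction. The call was lost when any 1 WT recovery library, or WT control replicate 1 or 3, was left out, though the log2 fold change stayed between -3.95 and -7.28, the latter without WT recovery replicate 1, and it was lost also without the filter or with Xist as a term. Cxcl5 was called lower, with S100a9 and Retnlg higher, by DESeq2 (27.1% of genes) and without WT AOM/DSS replicate 3 in the shared fit (23.9%), and S100a9 alone of 4 tested, having passed the filter only through recovery libraries, with the 6 WT libraries alone (11.8%). No Cldn2KO control lacked Hoxb13 and no recovery library had it, so recovery and the missing Hoxb13 cannot be told apart in Cldn2KO colon. In WT the control without Hoxb13 had 2 reads of Cxcl5, as low as the recovery libraries, and 1 read each of S100a8 and S100a9, below them. With Hoxb13 as a term in the fit, which rests on that 1 control, the Cxcl5 log2 fold change was 0.65 in WT and 2.16 in Cldn2KO, and no member was called in either genotype. Under that term 8 of 9 members in WT and 9 of 9 in Cldn2KO lay above 0, against 3 and 8 without it.

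**Figure D4:**
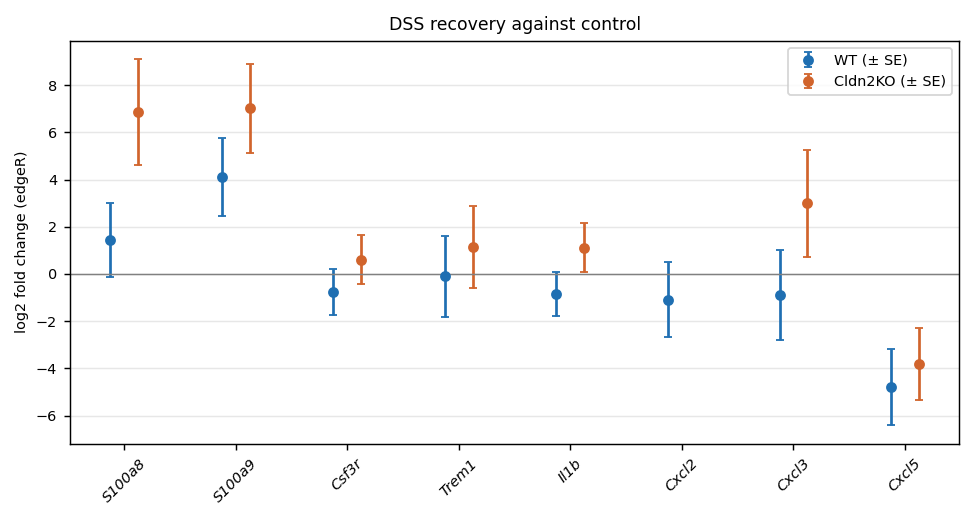
The log2 fold change (y axis, edgeR) of recovery over control is plotted for each member (x axis) with SE bars in WT (blue) and Cldn2KO (orange); Cxcr2, Retnlg and, in Cldn2KO, Cxcl2 are left out, the last 2 for having 0 control reads. S100a9 sits above 0 (4.11 and 7.02) and Cxcl5 below 0 (-4.80 and -3.83) in both genotypes, though with Hoxb13 as a term Cxcl5 is at 0.65 and 2.16.

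Genotype was also compared within untreated and recovery colon. In untreated colon S100a9 and Il1b were lower in all 3 Cldn2KO libraries than in all 3 WT libraries (10.7% of genes tested separated downwards). The S100a9 separation rests on single reads, with 7 reads in WT and 2 in Cldn2KO and a pooled ratio of 0.296 (0.03 to 1.55). On pooled reads Il1b was at 0.230 of WT (0.158 to 0.326), its log2 fold change going from -2.14 to -3.18 without Cldn2KO control replicate 3, and Cxcl2 was at least 17.1-fold lower. Markers of B and plasma cells summed to 13.3 to 165 CPM in Cldn2KO controls and 736 to 897 CPM in WT controls, with 2 of 7 called lower. Markers of T cells summed to 3.74, 2.61 and 11 CPM in Cldn2KO controls and 9.71, 75.3 and 15.3 CPM in WT controls, with 2 of 8 called lower. The T cell sums overlapped, and the 75.3 CPM was that of WT control replicate 2, the control without Hoxb13. Of the macrophage and monocyte markers, 1 of 12 was called lower. Their part in the members' values was not tested. Without WT control replicate 2, 7 of 10 members lay lower in each Cldn2KO control than in the other WT controls, as did 19.1% of genes. No member was called by edgeR, which called 1.17% of genes, 1 had an unadjusted p under 0.05 (13.1% of genes did), and DESeq2 called Cxcl2 lower, against 4.06% of genes. In recovery colon no member separated the genotypes (23.9% of genes did) and none was called by edgeR or DESeq2 or had an unadjusted p under 0.05, with 0.974% of genes called by edgeR, 8.09% by DESeq2 and 19.9% at an unadjusted p under 0.05. S100a8 was 3.13-fold (2.46 to 4.02) and S100a9 2.67-fold (2.15 to 3.34) higher in Cldn2KO on pooled reads. Leaving out Cldn2KO recovery replicate 2 took their log2 fold changes from 1.57 and 1.32 to 0.26 and 0.40, and leaving out WT recovery replicate 3 took them to 2.30 and 2.07. The interaction of genotype with treatment was called for no member by edgeR or DESeq2, and for none at an unadjusted p under 0.05, for recovery or for AOM/DSS. For recovery 0.130% of genes were called by edgeR, 5.5% by DESeq2 and 18.5% at an unadjusted p under 0.05, and for AOM/DSS 0.0118%, 0.514% and 8.44%.

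Around the members, 119 related genes in 9 lists were examined, of which 92 passed the filter. AOM/DSS in WT changed 9 of them by edgeR, 6 higher and 3 lower, or 9.78% against 10.4% of all genes. Among granule protein genes, the siderophore binder Lcn2 rose (log2 fold change 4.55, adjusted p = 0.0409), as did the neutrophil collagenase Mmp8 (4.80, adjusted p = 0.0307). Mmp8 rested on 2 control reads and a pooled 32.8-fold ratio (8.76 to 276). The histone-citrullinating enzyme Padi4 rose (5.87, adjusted p = 0.0414), with 0.0967, 2.93 and 24.7 CPM in WT AOM/DSS against 0.131 to 0.164 CPM in WT controls. The lectin receptor Clec4d rose (2.50, adjusted p = 0.0363), as did the chemokine Ccl20 (1.83, adjusted p = 0.0429) and the interleukin-23 subunit Il23a (3.93, adjusted p = 0.0350). The IL-17 receptor chain Il17rc fell (-1.35, adjusted p = 0.0169), as did the calcium-binding S100g (-2.99, adjusted p = 0.0410) and S100b (-1.89, adjusted p = 0.0496). None of the 9 was called without WT AOM/DSS replicate 3. There the log2 fold changes were 2.13 for Lcn2, 3.18 for Mmp8, 3.27 for Padi4, 0.94 for Clec4d and 1.78 for Il23a. With any 1 library of these groups left out, Ccl20 stayed between 1.45 and 2.12 and Il17rc between -1.49 and -1.07. S100g ranged from -3.70 to -1.23 and S100b from -2.39 to -1.42. Without WT control replicate 1, 2 or 3 the related genes called were 3, 1 and 5. Ccl20 had 29.8, 46.6 and 18.1 CPM in WT AOM/DSS, so replicate 3 was the lowest of its group.

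In Cldn2KO AOM/DSS colon edgeR called none of the 92, 19 had an unadjusted p under 0.05 (15.2% of all genes did) and DESeq2 called 4 (3.55% of all genes). Cxcl1, the relative of Cxcl2 with the same promoter letters, had 8.08, 1.82 and 6.41 CPM there against 0.222 to 0.323 CPM in Cldn2KO controls. In WT it had 4.84, 6.56 and 51.6 CPM in AOM/DSS and 4.05, 0.0654 and 5.15 CPM in control, the lowest again being the control without Hoxb13. WT AOM/DSS replicate 3 was also the highest library for 14 of 19 cytokine and receptor genes upstream of the chemokines, 10 of 18 neutrophil surface genes, 10 of 20 other chemokines, 8 of 17 interleukin-1 family and inflammasome genes, 4 of 11 granule genes, 3 of 6 genes of the oxidase and NETosis, 3 of 6 Trem receptor and adaptor genes, 2 of 17 other S100 and S100 receptor genes and 0 of 3 resistin family genes, against the 14.2% of all genes. Among the 14 were Il17a (2.74 CPM, at most 0.131 elsewhere), Il6 (2.46 CPM, at most 0.393) and Osm (4.68 CPM, at most 0.38), 3 cytokines named after their values were seen.

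Recovery changed 20 of the 92 in WT (21.7%, against 22.2% of all genes), 2 higher and 18 lower, and 24 in Cldn2KO (26.1%, against 19.4%), 10 higher and 14 lower. In WT the chemokine receptor Cxcr4 fell (-2.63, adjusted p = 0.00746), with the Fc receptors Fcgr3 (-2.16, adjusted p = 0.00511) and Fcgr4 (-1.85, adjusted p = 0.0210). The oxidase subunit Cybb fell (-2.43, adjusted p = 0.00527), as did the surface protein Cd177 (-1.92, adjusted p = 0.0487) and the macrophage receptor Trem2 (-2.34, adjusted p = 0.0407).

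Of the chemokines in WT recovery, Ccl7 (-3.41, adjusted p = 0.0107) and Pf4 (-2.48, adjusted p = 0.0025) fell, whereas Ccl9 (2.52, adjusted p = 0.00104) and Ccl6 (2.38, adjusted p = 0.0136) rose. Lower values were also called for Il17c (-3.13, adjusted p = 0.0298), Il17rc (-1.10, adjusted p = 0.0152), Il17ra (-0.55, adjusted p = 0.0256) and the adaptor Myd88 (-0.61, adjusted p = 0.0101). S100a14 (-2.32, adjusted p = 0.0257) and S100a16 (-1.29, adjusted p = 0.0482) fell as well. With any 1 library of these groups left out, 7 of the 17 genes taken by the naming rule were called each time, namely Cxcr4, Fcgr3, Cybb, Ccl7, Ccl9, Pf4 and Myd88, and of these Cybb and Ccl9 were also called with Hoxb13 as a term. The other 5 were not, with Pf4 going from -2.48 to -1.01 and Ccl7 from -3.41 to -2.08, and with Cxcr4 (-2.14), Fcgr3 (-1.94) and Myd88 (-0.56) near their values without the term. The related genes called were 11 without WT control replicate 1, 9 without WT recovery replicate 3 and 8 with Hoxb13 as a term, where Cd177, S100a14 and S100a16 turned to 1.64, 0.32 and 0.60. Trem2, not called with Hoxb13 or Xist as a term, ranged from -2.81 to -0.10 over the settings tried.

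In Cldn2KO recovery the granule-associated genes Chil3 and Mmp8 rose, at least 34.8-fold and at least 10-fold against controls with 0 reads (adjusted p = 0.0113 and 0.0217). The goblet cell product Retnlb rose (7.96, adjusted p = 0.00261), with 0.323 to 1.39 CPM in Cldn2KO controls and 81.1, 73.7 and 458 CPM in recovery, and its relative Retnla fell (-4.62, adjusted p = 0.0127). Retn rose (adjusted p = 0.0386), though its recovery libraries held 0, 2.83 and 10.5 CPM and overlapped the controls, which had 1 read. The chemokine Ccl4 rose from 1 read to 28 (26.3-fold, 4.35 to 1075.7, adjusted p = 0.0247), while Ccl8 (-3.53, adjusted p = 0.00977), Pf4 (-3.44, adjusted p = 0.000496) and Ccl7 (-2.82, adjusted p = 0.0344) fell.

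Among signalling genes in Cldn2KO recovery, Tnf rose (2.95, adjusted p = 0.0493), as did the interleukin receptors Il18r1 (2.84, adjusted p = 0.00867) and Il1r1 (1.11, adjusted p = 0.00443) and Ager (1.39, adjusted p = 0.0195), a receptor for S100 proteins. The cytokine Il18 fell (-2.21, adjusted p = 0.000935), with the receptors Fcgr3 (-2.08, adjusted p = 0.0068) and Ptafr (-2.02, adjusted p = 0.00424) and the oxidase subunit Cybb (-1.94, adjusted p = 0.0183). Trem2 (-2.70, adjusted p = 0.0225), its adaptor Tyrobp (-1.40, adjusted p = 0.0430), S100a14 (-2.29, adjusted p = 0.0291), S100a4 (-2.17, adjusted p = 0.0153) and S100a16 (-1.60, adjusted p = 0.0205) fell too. Of these 22, 8 were called with any 1 library of these groups left out, namely Chil3, Fcgr3, Ptafr, Pf4, Il18r1, Il18, Il1r1 and Retnlb. None of the 8 was called by edgeR with Hoxb13 as a term, where the log2 fold changes of Chil3 (8.25) and Fcgr3 (-1.76) held, while Il18r1 went to 1.25, Il18 to -0.66, Il1r1 to 0.30, Pf4 to -1.58, Ptafr to -1.34 and Retnlb to 3.91. The related genes called were 11 without Cldn2KO control replicate 3, 13 without Cldn2KO recovery replicate 2 and 2 with Hoxb13 as a term, where S100a14 and S100a16 turned to 0.86 and 0.73. Trem2, not called with Hoxb13 or Xist as a term, ranged from -3.16 to -0.01 over the settings tried.

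Between genotypes the 92 gave 1 call by edgeR, Retnlb lower in Cldn2KO controls (-6.61, adjusted p = 0.0364). Its WT control levels were 7.78, 215 and 18.1 CPM, the highest in replicate 2, and the call was lost without that replicate (-4.00) or without any 1 Cldn2KO control. In control 23 had an unadjusted p under 0.05, where 13.1% of all genes did. In recovery and in AOM/DSS none was called by edgeR, 16 and 11 had an unadjusted p under 0.05, and DESeq2 called 8 and 0. Of all genes 19.9% and 5.60% had an unadjusted p under 0.05, and DESeq2 called 8.09% in recovery. The interactions gave no call by edgeR, 17 and 6 at an unadjusted p under 0.05 (18.5% and 8.44% of all genes), and 2 and 0 by DESeq2.

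Markers of the cells themselves did not all follow the members. Ly6g, a surface marker of mouse neutrophils, had 342 to 528 CPM in Cldn2KO controls, which held 2 reads of S100a8 in all, and 517 and 463 CPM in WT control replicates 1 and 3. It had 0.589 CPM in WT control replicate 2, the control without Hoxb13, 6.88 to 80.4 CPM in the 6 recovery libraries and 191 to 272 CPM in AOM/DSS. Ly6g was thus at least 191 CPM in every library with Hoxb13 and at most 80.4 CPM in every library without it. How far it marks neutrophils in these libraries was not tested. The primary granule genes Mpo and Elane, transcribed in bone marrow precursors, had at most 7 reads and 1 read in any group. Other neutrophil genes were highest in the same library as the members, WT AOM/DSS replicate 3, namely Ltf, Lcn2, Mmp8 and Mmp9 of 11 granule genes and Fpr1, Fpr2, Cxcr1, Clec4d, Clec4e and Il1r2 among the 10 surface genes. There Mmp9, a gelatinase, had 7.18 CPM (at most 1.51 elsewhere) and Il1r2, a decoy receptor for IL-1, had 7.13 CPM (at most 1.19), genes named after their values were seen. Of the macrophage and monocyte markers, 10 of 12 fell in WT recovery and 8 of 12 in Cldn2KO recovery, with summed levels of 152 to 437 CPM in controls and 63.4 to 129 CPM in recovery. All 8 smooth muscle markers fell in Cldn2KO recovery and 5 of 8 in WT. Of all genes, 22.2% were called in WT recovery and 19.4% in Cldn2KO recovery, in either direction. Markers of squamous epithelium, a tissue of the anal margin, summed to 6.05, 35.1 and 66.5 CPM in WT AOM/DSS and 61.7, 7.88 and 73.3 CPM in Cldn2KO AOM/DSS, against 12.3, 71.8 and 17.6 CPM in WT controls, 5.76 to 8.77 CPM in Cldn2KO controls and 9.52 to 44 CPM in recovery. None of the 5 tested was called by edgeR for AOM/DSS in either genotype, where 10.4% of all genes were called in WT and 0.195% in Cldn2KO. At an unadjusted p under 0.05 there were 4 in WT and 5 in Cldn2KO, against 29.9% and 15.2% of all genes. Mast cell markers summed to 44 to 92.9 CPM in AOM/DSS, 19.3 to 38 CPM in controls and 27.4 to 53.7 CPM in recovery. In WT AOM/DSS replicate 3 the macrophage sum was 464 CPM, the highest of 18, the eosinophil sum was 35 CPM against 2.22 to 9.64 elsewhere, and the epithelial and smooth muscle sums, 10769.9 and 542 CPM, were the lowest. Only 2 of the 6 eosinophil markers, Il5ra and Alox15, were highest in that library, and 1 had 0 reads there. Of the 12 macrophage and monocyte markers 3 were highest there. The part of these cell types in the members' values was not tested.

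Within groups the members varied together. Over deviations from the group mean of log2 CPM in 18 libraries, the 45 pairs of members had Pearson r of 0.54 to 0.98 (median 0.79). Leaving out WT AOM/DSS replicates 3 and 1 took the range to 0.04 to 0.95 (median 0.42). The group means still included both, so the deviation of the WT AOM/DSS library that stayed still carried their values. S100a9 and Retnlg were closest (r = 0.98, then 0.95), Cxcl2 and Cxcl5 stood at 0.89 and 0.87, Cxcl2 and Cxcl3 went from 0.80 to 0.51, and S100a9 and Cxcl3 went from 0.72 to 0.04. Among 14334 other genes with a mean of at least 1 CPM, those most like S100a8 were Plat, Ext1, Nras, Gpcpd1 and Osmr (r from 0.926 to 0.901). Those most like Cxcl5 were Hebp2, Apobec3, Tmeff1, N4bp3 and Tpm4 (r from 0.952 to 0.920). Plat, tissue plasminogen activator, had 179 CPM in WT AOM/DSS replicate 3 and at most 40.1 CPM elsewhere. The points share libraries and scaling, and these values carry no p.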

How the data were processed

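The 18 libraries were sequenced on 2 lanes each, and the authors deposited raw counts of reads per gene and lane. The study's methods name TopHat2 as aligner and the submitters' processing notes HISAT2, with featureCounts (Subread) on GRCm38. Their versions and strand handling are not given in the sources used here.

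Lanes were summed, and 47224 of 47729 gene IDs were paired with symbols through GENCODE M21. No 2 libraries of a group were alike within sampling noise. In edgeR 4.0.16 (R 4.3.3), the 16937 genes kept by filterByExpr were scaled by TMM and fitted in one quasi-likelihood model of the 6 groups, and p-values were adjusted by the Benjamini-Hochberg method over all genes tested, with calls at an adjusted p under 0.05. SE is the absolute log2 fold change over the square root of F. The fit was tested on simulated data. These had the same spread for all genes and changes only in better-counted genes, so they do not cover an outlying library or genes with few reads. Pooled ratios divide reads by TMM-scaled depth, with exact 95% intervals, and a group with 0 reads was set to 3. Levels per kilobase divide CPM by the exonic length in the table.

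The members and lists were chosen with earlier results of these data known. The text names all members, from each list and comparison up to 4 called genes with the largest change, and the 5 genes most like S100a8 and most like Cxcl5. The values of 1 gene taken by this rule are not reported here. Alternatives were RLE scaling, no filter, DESeq2 1.42.0, the compared groups alone, Hoxb13 or Xist above 10 CPM as a term, the replicate number as a block, CPM without TMM, and each library left out. Leaving WT AOM/DSS replicate 3 out of comparisons that do not use it was chosen after seeing the data.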

Additional observations from a re-analysis of the deposited data

How the results depend on the processing

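Counts of calls moved more than the members' values. Genes called (and related genes called, where those moved) were as follows. For Cldn2KO versus WT in control, 199 (1) became 688 (14) with DESeq2, 131 with the compared groups alone and, for related genes, 0 without the filter. In recovery, 165 (0) became 71 without the filter, 1370 (8) with DESeq2, 23 with the compared groups, 538 (2) with Hoxb13 and 56 with Xist as a term. In AOM/DSS, 1 became 4 with DESeq2. For recovery versus control in WT, 3767 (20) became 1819 (13) with the compared groups, 1477 (8) with Hoxb13 and 2359 (12) with Xist. In Cldn2KO, 3291 (24) became 133 (2) with Hoxb13 and 1887 (13) with Xist. For AOM/DSS versus control in WT, 1761 (9) became 943 (3) without the filter, 3033 (21) with DESeq2, 7 (0) with the compared groups, 320 (1) with Hoxb13 and, for related genes, 5 with Xist. In Cldn2KO, 33 (0) became 601 (4) with DESeq2, 920 (10) with the compared groups, 176 (1) with Hoxb13 and 5 with Xist. The interaction with recovery went from 22 (0) to 931 (2) with DESeq2, 9 with the compared groups, 6 with Xist and, for related genes, 1 with Hoxb13. The interaction with AOM/DSS went from 2 (0) to 4 without the filter, 87 with DESeq2, 0 with the compared groups and 5 (1) with Hoxb13. With 1 library left out, genes called ranged from 25 to 300 (related genes 0 to 6) for genotype in control, 3 to 453 (0 to 1) in recovery and 1 to 2 (0) in AOM/DSS. They ranged from 1846 to 4350 (9 to 28) for recovery in WT, 1972 to 3588 (11 to 24) in Cldn2KO, 170 to 1696 (0 to 13) for AOM/DSS in WT and 4 to 211 (0) in Cldn2KO. The interactions ranged from 0 to 313 (0 to 1) and from 0 to 11 (0 to 1). With Hoxb13 as a term, 6 called log2 fold changes turned, in WT recovery Cxcl5 (0.65), Cd177 (1.64), S100a14 (0.32) and S100a16 (0.60), and in Cldn2KO recovery S100a14 (0.86) and S100a16 (0.73). Members that were not called turned as well, in WT recovery Csf3r (0.71), Trem1 (0.71), Cxcl2 (6.07) and Cxcl3 (3.68), and in Cldn2KO recovery Cxcl5 (2.16). The cause of these changes was not tested.

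The replicate block in the control comparison gave 179 genes called and 1 related gene called. Deviations of same-numbered controls correlated at 0.157, 0.00234 and 0.0794, so the numbers were not taken to pair the samples.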
